A study of Mus musculus with 9 samples.

Results

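The comparison described here set the histone H3 lysine 27 acetylation (H3K27ac) of wild-type (WT) limb buds against that of limb buds lacking both Sonic hedgehog and Gli3 (Shh-/-;Gli3-/-), using only the peak lists of these 2 genotypes. Its 6 libraries, of 9 in the whole series, comprised 2 H3K27ac chromatin immunoprecipitation (ChIP) replicates and 1 input for each genotype. Each ChIP used a single pair of forelimb buds from mouse embryos at E10.5 (embryonic day) with 33 to 34 somites, and the controls were WT littermates. The mutants were homozygous for Shh tm1amc and for Gli3 Xt-J, both described as null alleles. The labels call the strain mixed, whereas the methods of the study place both alleles on Swiss Webster stock. Both null alleles act in every cell of the embryo, so the forelimb buds came from embryos without SHH or GLI3 in any tissue. The members of the comparison were all 25096 WT peaks and all 34641 Shh-/-;Gli3-/- peaks, 59737 regions in all, matched by an overlap of at least 1 bp.

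Hedgehog (HH) signaling ends on the GLI transcription factors. Without ligand, GLI3 is processed to a repressor that holds target genes off. SHH, secreted from the posterior margin of the limb bud, stops this processing and allows full-length GLI proteins, chiefly GLI2 with GLI1 added as a target of the pathway, to activate transcription. H3K27ac marks active promoters and enhancers, so a limb bud that lacks SHH and GLI3 together is used to ask 2 questions. WT peaks that are missing from it mark regions to examine for a need for GLI activator, and regions with wider acetylation than in WT mark regions to examine for repression by GLI3. The lists alone cannot tell either apart from other differences between the 2 sets of embryos, and in pooled cells of a whole limb bud, fewer acetylated cells and less acetylation per cell cannot be told apart.

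Each genotype had 1 deposited list, called on its replicates together, so no value below has a replicate spread and no p-value was computed for any difference. Covered length is the number of base pairs inside peaks. The intervals given with shares are 95% Wilson intervals and cover counting error over peaks only.

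The sequences under the peaks that carry the locus results are given first, from GRCm38 (mm10), plus strand, 5′ to 3′. The first 4 hold a match to the GLI binding motif GACCACCCA or to its relaxed form GACCNCCCA, shown in capitals. They are a WT peak inside Gli1 (chr10:127339500-127339649) that was missing from Shh-/-;Gli3-/-, the unlisted gap between flanking peaks inside Ptch1 (chr13:63566300-63566499), a region downstream of Hand2 (chr8:57333950-57334249) that was mostly unlisted in WT, and a WT peak inside Hoxd11 (chr2:74684100-74684349). The last 2 show, with CG dinucleotides in capitals, 300 bases around the strongest position of a missing WT peak at the Peg3 promoter (chr7:6729976-6730275) and of the best-ranked autosomal Shh-/-;Gli3-/- peak with no WT counterpart, in an intron of Dgki (chr6:36898226-36898525).
Gli1: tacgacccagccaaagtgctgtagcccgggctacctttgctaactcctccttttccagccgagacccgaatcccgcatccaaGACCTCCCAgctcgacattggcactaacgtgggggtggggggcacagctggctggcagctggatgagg
Ptch1: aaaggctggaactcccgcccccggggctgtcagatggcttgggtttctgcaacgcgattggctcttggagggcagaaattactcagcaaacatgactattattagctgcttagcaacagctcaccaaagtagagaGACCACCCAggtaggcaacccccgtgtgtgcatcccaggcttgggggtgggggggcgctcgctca
Hand2: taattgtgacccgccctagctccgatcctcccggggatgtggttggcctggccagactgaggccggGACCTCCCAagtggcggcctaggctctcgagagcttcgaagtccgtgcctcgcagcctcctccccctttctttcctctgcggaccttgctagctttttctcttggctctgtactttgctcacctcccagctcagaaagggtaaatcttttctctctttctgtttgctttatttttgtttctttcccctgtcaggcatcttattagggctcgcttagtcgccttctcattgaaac
Hoxd11: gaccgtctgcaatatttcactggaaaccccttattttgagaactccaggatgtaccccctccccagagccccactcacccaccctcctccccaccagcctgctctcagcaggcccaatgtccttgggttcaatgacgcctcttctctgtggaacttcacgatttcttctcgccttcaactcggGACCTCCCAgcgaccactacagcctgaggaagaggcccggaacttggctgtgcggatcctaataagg
Peg3: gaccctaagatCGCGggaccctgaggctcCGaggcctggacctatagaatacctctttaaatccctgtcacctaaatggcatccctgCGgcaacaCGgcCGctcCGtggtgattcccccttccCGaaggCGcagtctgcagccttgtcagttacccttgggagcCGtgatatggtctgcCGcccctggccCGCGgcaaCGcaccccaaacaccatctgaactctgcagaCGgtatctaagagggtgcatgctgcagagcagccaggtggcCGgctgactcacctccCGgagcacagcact
Dgki: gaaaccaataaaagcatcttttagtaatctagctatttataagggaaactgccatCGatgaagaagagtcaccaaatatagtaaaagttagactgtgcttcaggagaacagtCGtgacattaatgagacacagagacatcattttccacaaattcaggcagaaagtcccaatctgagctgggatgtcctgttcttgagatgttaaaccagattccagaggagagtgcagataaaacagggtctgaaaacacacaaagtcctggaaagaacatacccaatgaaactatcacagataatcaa

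The acetylated territory was larger in Shh-/-;Gli3-/- and largely contained that of WT. WT peaks covered 10.4 Mb and Shh-/-;Gli3-/- peaks 17.1 Mb, a ratio of 1.66. Of the WT peaks, 70.8% were overlapped by a Shh-/-;Gli3-/- peak, and 7332 of 25096 (29.2%, interval 28.7% to 29.8%) were missing. In the other direction 19646 of 34641 Shh-/-;Gli3-/- peaks (56.7%, 56.2% to 57.2%) had no WT counterpart. When each list was held to its 25096 best-ranked peaks, 33.3% of the WT peaks were missing, 45.0% of the Shh-/-;Gli3-/- peaks had no counterpart, and the covered-length ratio was 1.52. The lists were thus of unequal size, and the longer one also held wider peaks at equal number.

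Missing peaks were short. WT peaks without a counterpart had a median width of 150 bp, against 350 bp for those with one, and held 1.14 Mb or 11.05% of the WT covered length. Shh-/-;Gli3-/- peaks without a WT counterpart held 4.67 Mb. A further 4.01 Mb of Shh-/-;Gli3-/- coverage lay outside WT peaks but inside peaks that overlapped one, so the extra length was divided between added peaks and wider or joined ones. Among 11451 pairs in which 1 WT peak met 1 Shh-/-;Gli3-/- peak, the median width was 350 bp in WT and 550 bp in Shh-/-;Gli3-/-, and the peak was wider in Shh-/-;Gli3-/- in 72.1% of pairs (71.3% to 72.9%). In addition 2589 Shh-/-;Gli3-/- peaks each spanned 2 or more WT peaks, 5950 WT peaks in all.

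Loss and gain were both concentrated away from promoters, taken as the stretch that begins 2 kb before a protein-coding transcript start and ends 1 kb after it. Of the 13427 promoter peaks of WT, 13.2% were missing (12.6% to 13.8%), against 47.6% of 11669 distal peaks (46.7% to 48.6%). Of the Shh-/-;Gli3-/- peaks without a WT counterpart, 16306 were distal and 3340 were at promoters. The order was the same with equal numbers of peaks, at 16.9% and 52.1% of WT peaks missing, and among peaks with a false discovery rate (FDR) below 0.05 in both lists, at 7.53% and 34.3%. By gene, 373 of 9679 genes with a WT promoter peak had no Shh-/-;Gli3-/- promoter peak (3.85%), and 826 of 12259 without a WT promoter peak had one in Shh-/-;Gli3-/- (6.74%).

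**Figure D1:**
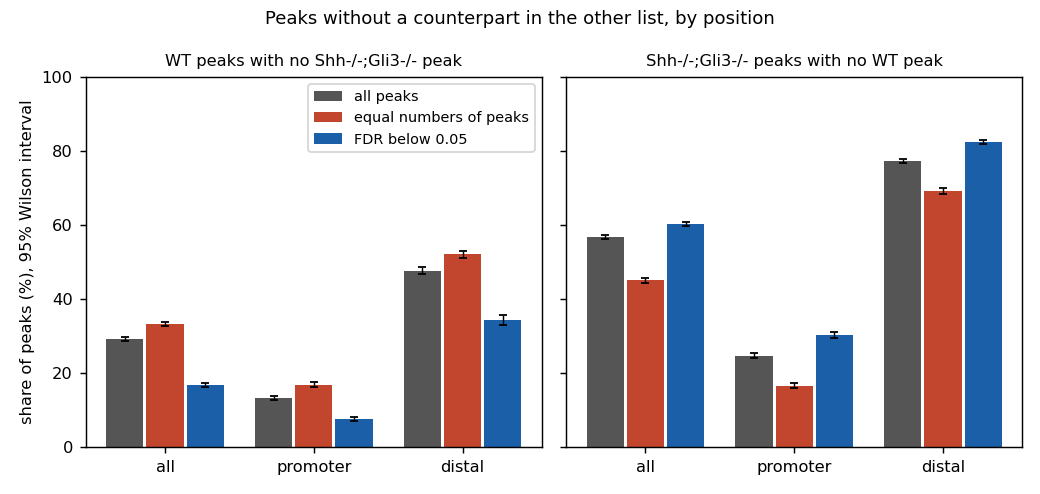
Share of peaks (%) with no overlapping peak in the other list, for WT peaks (left) and Shh-/-;Gli3-/- peaks (right), by position; bar colors give all peaks, equal numbers of peaks and peaks with FDR below 0.05, and error bars are 95% Wilson intervals. In every setting shown the distal share exceeds the promoter share, 47.6% against 13.2% for all WT peaks.

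Each gene was then described by the covered length over its span with 50 kb added on either side. Of 21938 protein-coding genes, 17083 had a peak of either list in this window. Coverage was larger in Shh-/-;Gli3-/- for 81.6% of them and smaller for 15.2%, with a median difference of 0.4 kb. A gene was called expanded when its Shh-/-;Gli3-/- coverage was at least 3 times the WT value and at least 2 kb larger, which held for 311 genes (1.82%) lying in 239 separate windows. It was called reduced when coverage was at most 0.5 times the WT value and at least 1 kb smaller, which held for only 2 genes (0.0117%). Among 10059 genes with at least 3 WT peaks, 1507 (15.0%) had at least 50% of those peaks missing. Neighboring genes share peaks, so these counts are not counts of independent loci.

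**Figure D2:**
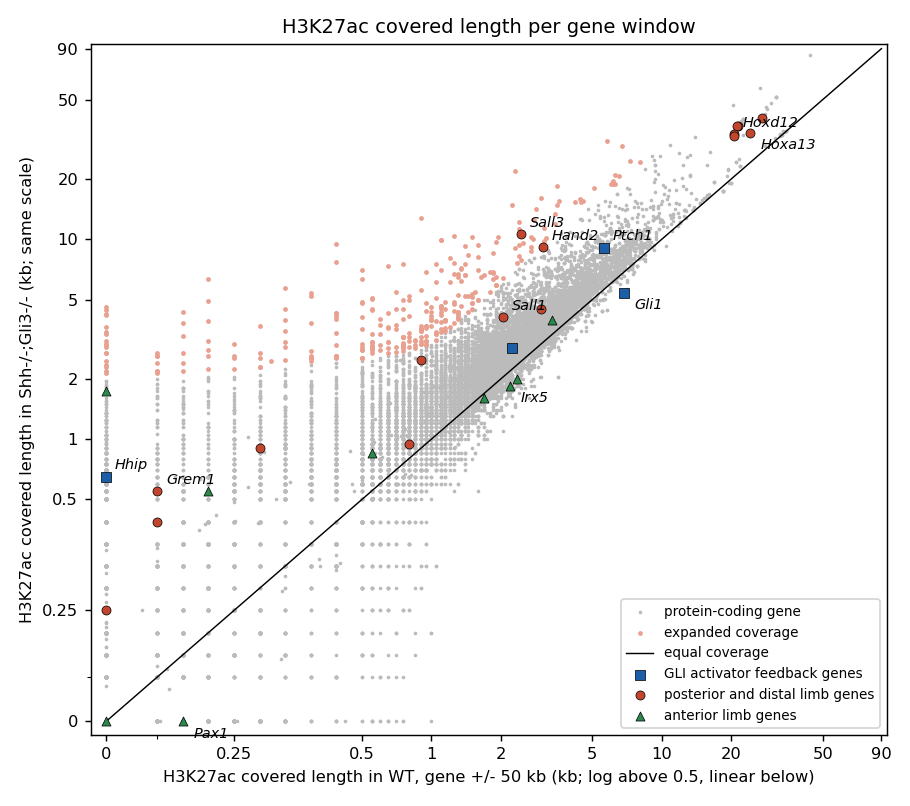
H3K27ac covered length (kb) within 50 kb of each of 17083 protein-coding genes in WT (horizontal) and Shh-/-;Gli3-/- (vertical), on axes that are linear below 0.5 kb and logarithmic above; colored symbols mark the GLI feedback, posterior and distal, and anterior limb genes. Gli1 lies below the line of equal coverage at 6.85 and 5.4 kb, while Hand2 (3.05 and 9.15 kb) and Sall3 (2.45 and 10.6 kb) lie among the expanded genes.

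Gli1, the GLI family member whose transcription depends on GLI activator and serves as the standard readout of HH signaling, had listed acetylation over its 5′ end in WT and none in Shh-/-;Gli3-/-. The WT list had 6 peaks at its 5′ end, from -0.025 to 2.47 kb relative to the start, covering 1.5 kb with log2 folds over input of 2.17 to 3.59. Shh-/-;Gli3-/- had no peak there or anywhere over the gene. The promoter-most peak was the strongest of the 6, with an FDR of 0.00126, and 3 of the 6 had an FDR below 0.05.

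The missing peaks all lay at the gene itself. The other 5 WT peaks in the 50 kb window, at 30.4 kb and beyond on the 3′ side and at -40.0 kb on the 5′ side, were all matched in Shh-/-;Gli3-/-, so the window went from 11 WT peaks and 6.85 kb to 6 peaks and 5.4 kb. The 6 missing of 11 peaks passed the missing-peak call, also with equal numbers of peaks, where 20.3% of genes did. The call was not passed with both lists held to an FDR below 0.05, where 3 of 7 WT peaks were missing, or with 100 kb on either side, where 6 of 13 were.

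The completeness of the loss at Gli1 was rare. Taking each gene with 2 kb on either side, a window chosen after the values were seen, 4198 genes had at least 1 kb of WT coverage and 2 of them (0.0476%) had none in Shh-/-;Gli3-/-. These were Gli1, at 1.5 kb in 6 peaks, and Ddit4, a stress-inducible inhibitor of mTOR signaling, at 1.2 kb in 3 peaks. In the other direction, 52 of 5963 genes with at least 1 kb in Shh-/-;Gli3-/- had none in WT (0.872%). The difference of -1.45 kb in the 50 kb window of Gli1 was shared by other genes with the same peaks in view, and Inhbe and Inhbc, next to it, had the largest loss of any autosomal gene at -1.5 kb each.

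The other GLI feedback genes kept or extended their acetylation. Ptch1, which encodes the SHH receptor that also limits the pathway, had 11 WT peaks covering 5.6 kb and 12 Shh-/-;Gli3-/- peaks covering 9.1 kb. Its main peak, 3600 bp wide in WT and 3750 bp in Shh-/-;Gli3-/-, was present in both, and 3 of its 11 WT peaks were missing. The 2 WT peaks nearest its start were 200 bp each; the one at 0.599 kb was missing and the one at 0.299 kb was matched by a 100 bp peak.

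Hhip, which encodes a secreted HH antagonist, had no WT peak and 4 Shh-/-;Gli3-/- peaks of 100 to 200 bp, all 8.96 kb or more inside the gene. Of the 4 feedback genes, 1 had smaller coverage and 3 had larger coverage. Gli1 was the only one called, among 3 with at least 3 WT peaks, against 15.0% of all genes.

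Matches to the GLI motif were then placed against these peaks. In the Gli1 window 7 matches to GACCNCCCA were found on either strand, and the only one inside a WT peak, GACCTCCCA at 2.38 kb, lay in the missing peak printed above. In the Ptch1 window 11 matches were found. The exact match printed above lay in a 200 bp gap between listed peaks, a gap also unlisted in part in Shh-/-;Gli3-/-, where the flanking peaks ended at 63566299 and began at 63566450. A GACCTCCCA match at 6.80 kb lay in a peak kept in both lists, and a GACCCCCCA match at 44.8 kb lay in a 150 bp WT peak that was missing.

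**Figure D3:**
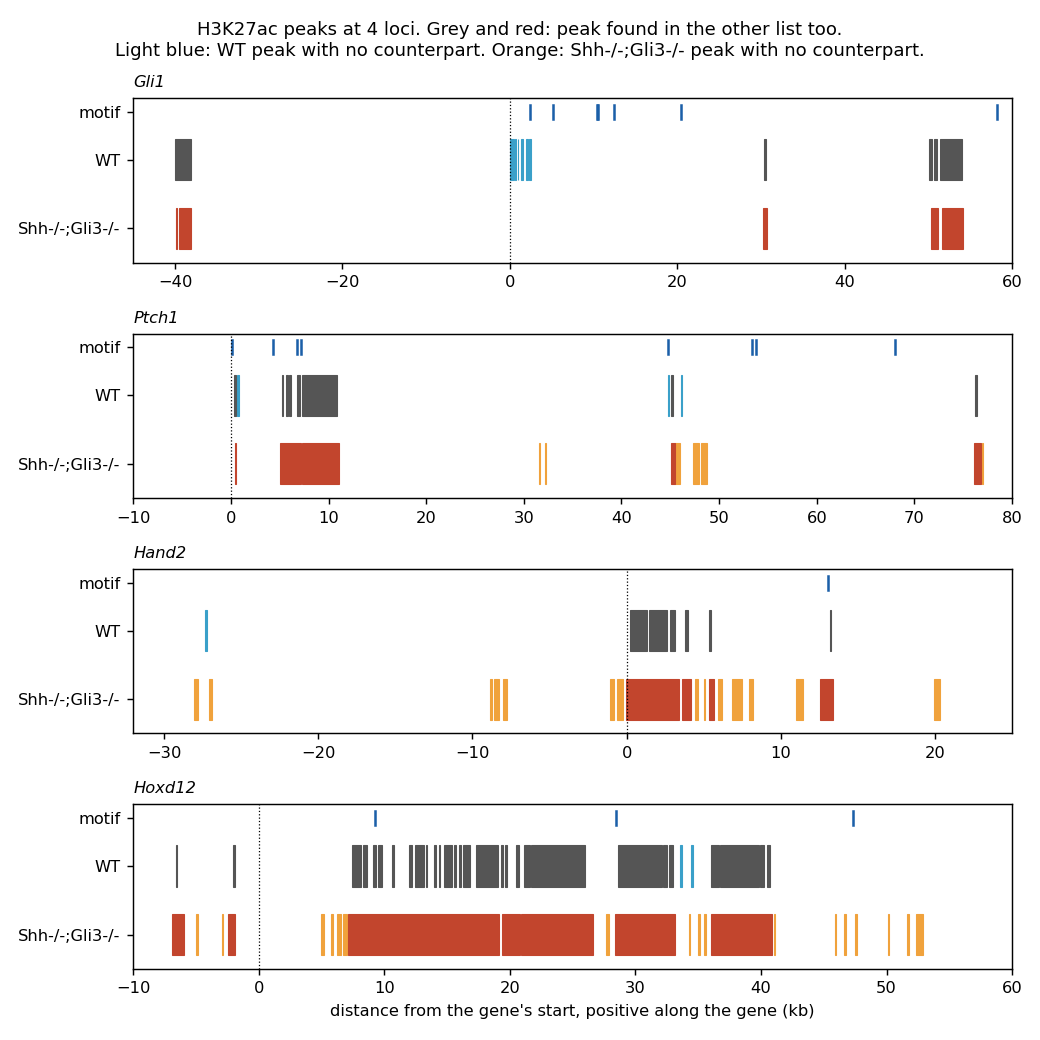
H3K27ac peaks of WT (upper row) and Shh-/-;Gli3-/- (lower row) at Gli1, Ptch1, Hand2 and Hoxd12, by distance from the gene's start (kb); light blue and orange bars have no counterpart in the other list, and blue ticks are GACCNCCCA matches. The 6 WT peaks at the start of Gli1 have no counterpart, whereas Hand2 and Hoxd12 carry wider and added Shh-/-;Gli3-/- peaks.

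Genes of HH signal transduction, a list that includes Gli2 and Gli3, had peaks within 50 kb in both genotypes. Of the 10 members, 8 had larger and 2 smaller coverage in Shh-/-;Gli3-/-, a share close to the 81.6% of all genes. None was expanded or reduced, against 1.82% and 0.0117% of all genes. Of the 8 with a WT promoter peak, 1, Kif7, had no promoter peak in Shh-/-;Gli3-/-, against 3.85% of all such genes. Gli2, the main GLI activator, had 7.05 kb in WT and 12.4 kb in Shh-/-;Gli3-/-. Sufu, which holds GLI proteins in the cytoplasm, passed the missing-peak call with 7 of 12 WT peaks missing, as did Kif7, a ciliary kinesin, with 2 of 3. They were 2 of 7 members with at least 3 WT peaks, against 15.0% of all genes, and neither passed among peaks with an FDR below 0.05. Lrp2, a co-receptor, had 0.25 kb in WT and 0.1 kb in Shh-/-;Gli3-/-.

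The targeted genes themselves could not check the genotype labels. No peak of either list lay within 50 kb of Shh, whose limb enhancer is far from the gene. Gli3 had 7.05 kb in WT and 14.2 kb in Shh-/-;Gli3-/-, and no peak of either list lay beyond 97.8 kb from its start, so the 3′ part of the gene carried no acetylation to compare. The GEO genotype field reads wild type for all libraries, and the titles were used instead.

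Genes of the posterior and distal limb bud, which respond to SHH, all had larger coverage in Shh-/-;Gli3-/-. This held for 16 of 16 members, against 81.6% of all genes, with a median difference of 4.08 kb and a median ratio of 1.74 against 0.4 kb and 1.30 over all genes. With equal numbers of peaks it again held for 16 of 16, against 75.4%. With equal covered length it held for 10, against 37.8% of all genes: Grem1, Tbx3, Jag1, Prdm1 and Bmp2 had differences of -0.3 to -0.1 kb and Osr1 had no peak left. Jag1 also turned to -0.05 kb with 100 kb on either side. Hoxd10 to Hoxd13 share most of their peaks, as do Hoxa11 and Hoxa13. Coverage was also larger at 14 of 14 housekeeping genes, with a median ratio of 1.33. Of the 16, 2 were expanded, against 1.82% of all genes, and 1 of these, Sall3, with equal numbers of peaks. None of the 10 members with at least 3 WT peaks passed the missing-peak call, against 15.0%, but with equal numbers of peaks Tbx3 did, with 3 of 5 missing. With equal covered length Hand2 and Tbx3 passed it, as did 5841 of 10059 genes. With 100 kb on either side Tbx3 passed it, as did 1866 of 13526 genes.

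Hand2, the transcription factor that sets up Shh expression in the posterior limb bud, had 7 WT peaks covering 3.05 kb and 18 Shh-/-;Gli3-/- peaks covering 9.15 kb. In WT the 2 widest peaks, 1100 and 1150 bp, lay over the gene. A single Shh-/-;Gli3-/- peak of 3450 bp spanned them and the next WT peak, and 14 of the 18 Shh-/-;Gli3-/- peaks had no WT counterpart. Hand2 sat at the threshold of the expanded call with a ratio of 3.0, as did Ccdc42, Pdzrn3 and Erg just inside, while Pard3 at 2.98 and Shroom3 at 2.98 lay just outside. With equal numbers of peaks it had 8.45 kb and was no longer called.

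The region printed above for Hand2 lay 13 kb downstream of its start. The WT list held only a 100 bp peak there, with a log2 fold of 2.30 and an FDR of 0.168. In Shh-/-;Gli3-/- it was an 850 bp peak with an FDR of 0.00118, which took in the GACCTCCCA match that the WT peak left out.

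The 5′ Hoxd genes, which pattern the distal limb, carried the Shh-/-;Gli3-/- peak that joined the most WT peaks. It was 12050 bp wide, the widest in either list, reached from inside Hoxd11 into Hoxd10 and spanned 15 separate WT peaks. From the start of Hoxd13 to the end of Hoxd11, a span of 18.7 kb, coverage was 1.97 kb in WT and 7.66 kb in Shh-/-;Gli3-/-, or 10.51% and 40.9% of the span. Over the Hoxd11 gene it was 23.02% and 82.0%.

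Farther 3′ the cluster was already acetylated in WT. Hoxd9 was covered over 100% of its length in both lists, and Hoxd8 over 92.5% and 100%. The Hoxd12 gene body held no peak of either list, and Hoxd13 held 0.1 kb in WT and 0.94 kb in Shh-/-;Gli3-/-. In the 50 kb window of Hoxd12, 20.6 kb was covered in WT and 33.6 kb in Shh-/-;Gli3-/-, and 2 of 32 WT peaks were missing.

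The gain at Hoxd was made up of wider or joined peaks and of added ones, and peaks without a WT counterpart held 5.45 kb in 24 peaks at Hoxd10 and 3.26 kb in 17 peaks at Hoxd12. With every peak replaced by 500 bp around its strongest position, a setting chosen after the data were seen, the differences became -0.5 kb at Hoxd10 and at Hoxd11, -3.47 kb at Hoxd12 and -5.23 kb at Hoxd13. The same setting gave -5.05 kb at Hoxa11 and -4.93 kb at Hoxa13, where the deposited widths gave larger coverage in Shh-/-;Gli3-/-. A peak that spans several WT peaks counts once in that setting, so it does not separate width from joining. Over all 16 posterior and distal genes, 8 differences were then positive, 6 negative and 2 at 0, against 46.1% positive for all genes. Of the 10 with at least 3 WT peaks in that setting, 7 passed the missing-peak call, against 1965 of 9520 genes.

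Sall3, a zinc finger gene of the distal limb bud, had the highest ratio among the members with at least 3 WT peaks. It had 6 WT peaks covering 2.45 kb and 18 Shh-/-;Gli3-/- peaks covering 10.6 kb. No WT peak was missing, and 13 of the Shh-/-;Gli3-/- peaks had no WT counterpart. It remained expanded with equal numbers of peaks, at 10.2 kb, but not with equal covered length, at 6.15 kb, where 34 of 16022 genes were expanded. Its relative Sall1 had 2.05 and 4.1 kb, with a 3550 bp peak joining a pair of WT peaks over the 5′ end of the gene.

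The remaining members differed by less than 2 kb. Tbx2 and Tbx3, T-box genes of the limb margins, had 0.9 and 3.0 kb in WT and 2.5 and 4.5 kb in Shh-/-;Gli3-/-. Prdm1 had 0.3 and 0.9 kb, and Jag1, a Notch ligand, 0.8 and 0.95 kb. Grem1, the secreted BMP antagonist that links SHH to the apical ridge, had 0.1 and 0.55 kb, none of it over the gene itself. With 100 kb on either side its difference was 1.6 kb. GRE1, a Grem1 limb enhancer named in the study, lies outside both windows. Osr1 and Bmp2 had at most 0.1 kb in WT and 0.25 and 0.45 kb in Shh-/-;Gli3-/-. Within 50 kb, the differences of these genes rested on at most 9 peaks per list.

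Anterior limb genes were divided in direction as deposited, but not in every setting. Of the 8 with a peak, coverage was larger for 4, against 81.6% of all genes, and smaller for 4. The median ratio was 0.941 and the median difference 0.1 kb. With equal numbers of peaks 4 of 8 were larger, against 75.4%, and with equal covered length 2 of 8, against 37.8%. At an FDR below 0.05, 6 of 7 were larger, against 87.6% of all genes. With 100 kb on either side 6 of 8 were, against 86.0%. The Iroquois genes Irx3 and Irx5 had 2.35 and 2.2 kb in WT and 2.0 and 1.85 kb in Shh-/-;Gli3-/-, with 2 of 5 and 3 of 8 WT peaks missing. Their signs turned among peaks with an FDR below 0.05. Alx4, which limits the posterior program anteriorly, had 1.7 and 1.6 kb. Pax1 had a single 150 bp WT peak that was missing, and Pax9 had no peak of either list. None of the 9 was expanded or reduced, against 1.82% and 0.0117% of all genes. None of the 5 with at least 3 WT peaks passed the missing-peak call, against 15.0%. With equal numbers of peaks Alx4 passed it, with 2 of 3 missing, against 20.3% of genes. Whether this list differs from others was not tested.

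**Figure D4:**
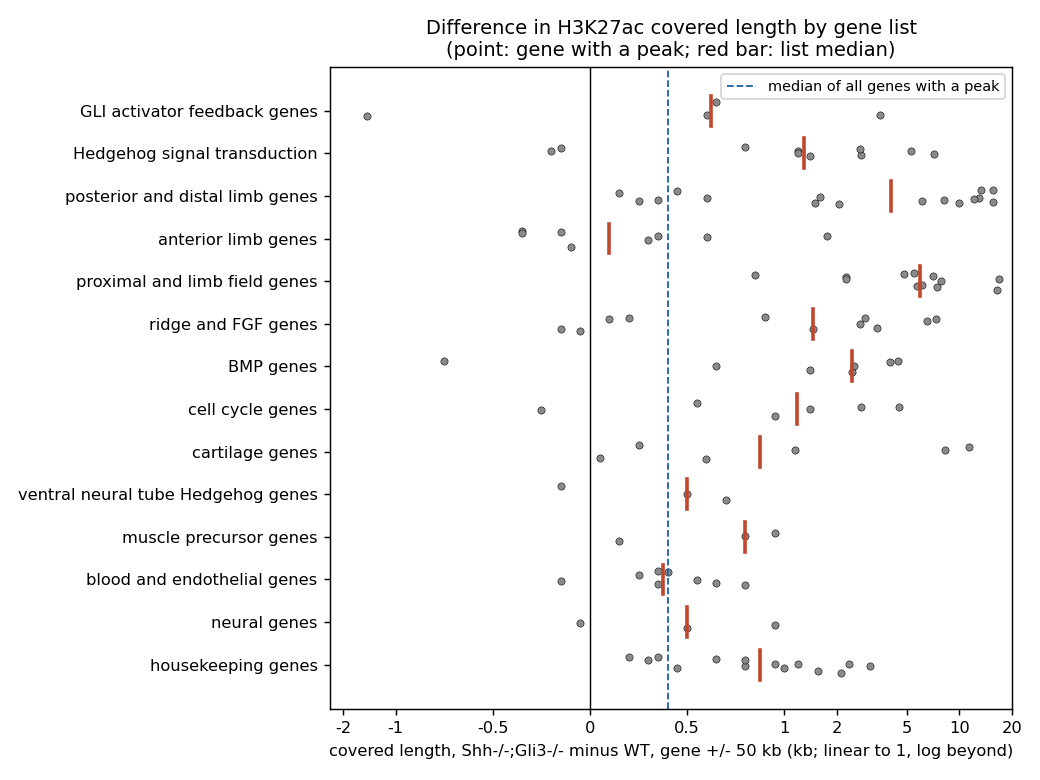
Covered length in Shh-/-;Gli3-/- minus WT (kb, linear to 1 and logarithmic beyond) for each gene with a peak, by gene list; red bars are list medians and the dashed line is the median of all genes, 0.4 kb. All 16 posterior and distal limb genes lie right of 0, the 8 anterior limb genes with a peak lie on both sides, and the lowest point is Gli1 at -1.45 kb.

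Limb field and proximal genes had larger coverage in 12 of 12 cases, against 81.6% of all genes, with a median difference of 5.94 kb and a median ratio of 1.54. With equal covered length it held for 8 of 12, against 37.8%. Hoxd9 had the largest difference, 22.1 kb against 38.9 kb, in a window shared with the genes above. Shox2, needed for the proximal skeleton, had 5.85 and 13.3 kb.

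Among ridge and fibroblast growth factor genes, 9 of 11 with a peak had larger coverage, close to the 81.6% of all genes, and Fgf10 was expanded, as were 1.82% of all genes. Fgf10, the mesenchymal ligand that maintains the apical ridge, had 8 WT peaks covering 2.75 kb and 23 Shh-/-;Gli3-/- peaks covering 10.1 kb, 21 of them without a WT counterpart. It remained expanded with equal numbers of peaks, at 8.3 kb, but not with equal covered length, at 4.1 kb, where 34 of 16022 genes were expanded. The ridge ligands Fgf8 and Fgf17 had 2.15 and 1.05 kb in WT and 2.35 and 0.9 kb in Shh-/-;Gli3-/-.

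Of the BMP genes, 6 of 7 had larger coverage, near the share of all genes. Bmp7, a ligand, was expanded at 1.85 and 6.3 kb, but not with equal numbers of peaks, where it had 5.35 kb. It was 1 of 7 members called expanded, against 1.82% of all genes. Msx2, a transcriptional target of BMP signaling, had 9 WT peaks covering 2.7 kb and 7 Shh-/-;Gli3-/- peaks covering 1.95 kb. It passed the missing-peak call with 5 of 9 WT peaks missing, and 2 of 5 were missing among those with an FDR below 0.05. Of the 7 members, all with at least 3 WT peaks, 1 was called, near the 15.0% of all genes.

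Among cartilage genes, Sox5 and Sox6, the partners of Sox9 in chondrogenesis, were expanded. They were 2 of the 6 in the list, against 1.82% of all genes. Both are long genes, at 953.6 and 567.9 kb, and a longer gene has a larger window. Sox5 had 3.5 kb in WT and 14.9 kb in Shh-/-;Gli3-/-, and Sox6 had 3.1 and 11.4 kb. Both calls held with equal numbers of peaks. With equal covered length neither was expanded, as 34 of 16022 genes were. Both then passed the missing-peak call, with 7 of 13 and 7 of 11 WT peaks missing, as did 5841 of 10059 genes. Sox9 itself had 1.25 and 1.5 kb. Coverage was larger for all 6 as deposited, against 81.6% of all genes, and for 4 with equal numbers of peaks, against 75.4%. Of the 6 cell cycle genes 5 had larger coverage, near the share of all genes, the most at Cdk6, with 3.45 and 7.95 kb. Ccnd2, a D-type cyclin gene, was the exception at 3.3 and 3.05 kb, with 3 of 8 WT peaks missing, all upstream of its start.

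Markers of other cells that a limb bud sample can hold differed in how many had a peak. Neural genes had a peak at 3 of 7 members, with Sox1, Sox2, Pax6 and Neurog2 at none. Muscle precursor genes had one at 3 of 5 and summed to 0.3 kb in WT and 2.2 kb in Shh-/-;Gli3-/-. Lbx1 went from 1 to 6 peaks, at 0.3 and 1.25 kb, and Met from 0 to 4, at 0.8 kb, while Myf5 and Myod1 had none. With equal numbers of peaks only Lbx1 retained peaks, at 1.15 kb in Shh-/-;Gli3-/-. Genes regulated by HH in other tissues, mostly the ventral neural tube, had one at 3 of 8, covering at most 0.2 kb in WT and 0.7 kb in Shh-/-;Gli3-/-. Blood and endothelial genes had a peak at 8 of 10, compared with 17083 of 21938 protein-coding genes, and summed to 6.25 kb in WT and 9.45 kb in Shh-/-;Gli3-/-. Pecam1, an endothelial adhesion gene, had 3.95 and 4.5 kb and passed the missing-peak call with 3 of 6. It was 1 of 3 members with at least 3 WT peaks, against 15.0% of all genes called. Hba-x, an embryonic globin gene, had 1.55 and 1.9 kb. Limb mesenchyme genes such as Prrx1, with 6.9 and 13.9 kb, were acetylated in both. The part of other cell types in the differences above was not tested.

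The 10 autosomal windows with the largest gain, taken in order without overlap, gained 16.95 to 39.2 kb. The Hoxa and Hoxd clusters were among them, at 31.4 and 51.4 kb around the Hoxa gene model Gm28308 and at 22.6 and 39.8 kb around Hoxd3. Mecom, a zinc finger regulator, had 26.8 and 57.3 kb with 1 of 37 WT peaks missing. Zfp608 had 10.9 and 29.6 kb, and a single Shh-/-;Gli3-/- peak of 10350 bp there spanned 8 WT peaks. The window of Rsrc1, which takes in Shox2, had 7.3 and 24.6 kb, and that of Lrmda, which takes in Zfp503, had 6.75 and 29.2 kb.

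The widest ratio among them was at Lrba, whose window also holds Mab21l2, with 2.3 kb in WT and 21.9 kb in Shh-/-;Gli3-/-. Dnm3 had 20.4 and 47.0 kb and Cep41, next to the imprinted gene Mest, 9.05 and 26.0 kb. The first in order, Gm20388, is a gene model 4435 kb long over 75 other genes, so its 44.1 and 83.3 kb describe a region rather than a gene. In all 10 windows the order of the genotypes held with equal numbers of peaks.

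The windows with the most WT length in missing peaks mostly gained coverage too. Gm20388 came first again, followed by Fgfr2, whose gene model spans 2961 kb, with 17 of 51 WT peaks missing and 22.5 and 33.3 kb covered. In the window of Tle2, a Groucho co-repressor, 12 of 24 WT peaks were missing and coverage was 8.5 and 7.8 kb. Hoxb3 had 12 of 31 missing, yet 13.3 and 20.7 kb covered, and Hoxc4 had 8 of 29 missing with 12.1 and 12.2 kb covered. The window of R3hdm2 lost 1.7 kb in 7 of 10 peaks, 6 of them those of Gli1. Hist1h1d, in the histone gene cluster, had 10 of 35 missing at 32.8 and 33.2 kb.

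**Figure D5:**
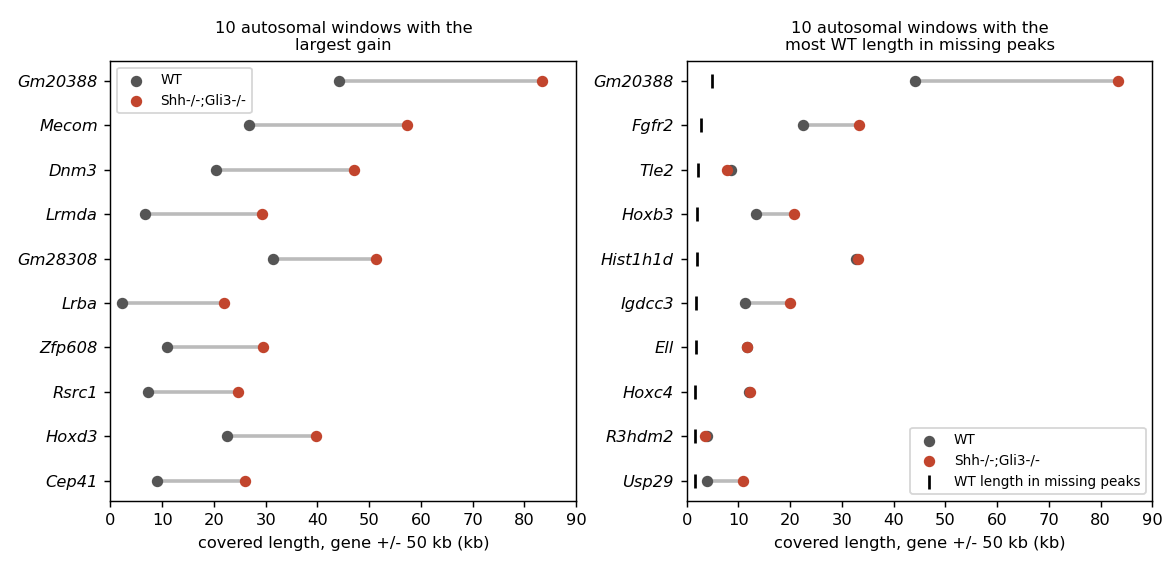
Covered length (kb) in WT and Shh-/-;Gli3-/- for the 10 autosomal gene windows with the largest gain (left) and the 10 with the most WT length in missing peaks (right), where black ticks give that missing length. On the left every window gains at least 16.95 kb; on the right the missing length is at most 4.95 kb and coverage is smaller in Shh-/-;Gli3-/- only at Tle2, Ell and R3hdm2.

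Only Cers4, a ceramide synthase gene, and Nek1, a ciliary kinase gene, met the reduced call. Cers4 had 4 WT peaks covering 1.0 kb and no Shh-/-;Gli3-/- peak. Nek1 had 1.6 kb in 4 peaks and 0.55 kb in 3. Both calls held with equal numbers of peaks, where 7 genes were reduced (0.042%).

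The strongest single missing WT peaks were mostly at promoters of genes outside the HH pathway. Among all missing WT peaks on autosomes, 1737 of 7221 were at promoters. Of the 10 best-ranked on autosomes, 8 were at promoters. The first was a 550 bp peak at Lpar2, a lysophosphatidic acid receptor gene, with a log2 fold of 4.31, followed by Zmat3 at 4.13 and Timm29 at 3.91. The fourth, a 700 bp peak with a log2 fold of 3.78, lay at the shared 5′ end of Peg3 and Usp29, a paternally expressed imprinted domain, and is printed in part above with its 17 CG dinucleotides. Igdcc4, Ftl1, Zfhx2 and Sh3bgrl3 supplied the other promoter peaks, and Calr4 and St6galnac3 the 2 intronic ones.

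Among all Shh-/-;Gli3-/- peaks without a WT counterpart on autosomes, 3115 of 18583 were at promoters, so both classes as a whole were mainly distal. None of the 10 best-ranked on autosomes was at a promoter: 6 lay in introns, 3 between genes and 1 over an exon of an unnamed transcript. The first was a 1200 bp peak in an intron of Dgki with a log2 fold of 5.05, of which the 300 bases printed above hold 2 CG dinucleotides. A pair of peaks of 1500 and 1550 bp in Ccser1 lay 0.2 kb apart, and a 2000 bp peak lay in Slc7a11.

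Sequence composition differed between the classes. In 500 bp windows centered on each peak, missing WT peaks averaged 10.8 CG dinucleotides against 28.6 for WT peaks with a counterpart. Shh-/-;Gli3-/- peaks without a counterpart averaged 8.97 against 30.3. All 500 bp windows of the genome averaged 4.12. Promoter peaks without a counterpart were also poorer in CG than those with one, at 21.4 against 37.3 in WT and 21.6 against 38.7 in Shh-/-;Gli3-/-.

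The GLI motif was scarce in every class. GACCACCCA was found on either strand in 0.696% of windows on missing WT peaks (0.530% to 0.914%), in 0.479% of those on WT peaks with a counterpart (0.387% to 0.591%) and in 0.362% of those on Shh-/-;Gli3-/- peaks without one (0.287% to 0.456%). The interval of the first overlaps that of the second and not that of the third. It was found in 0.437% of promoters and in 0.340% of all genome windows of that length. The relaxed form GACCNCCCA, which includes the exact one, was found in 1.99%, 1.92% and 1.26% of the same 3 classes and in 1.77% of promoters and 0.933% of genome windows. A match is a description of sequence and not evidence of binding.

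Expanded genes were long. Their median length was 123.6 kb against 21.2 kb for all genes with a peak, their median coverage was 0.9 kb in WT and 4.0 kb in Shh-/-;Gli3-/-, and 18 of the 311 had no WT peak at all. A longer gene has a larger window, so length and the call are linked by construction. Of the 311, 212 met the same criteria with equal numbers of peaks, where the background was 1.27%. Genes called for missing peaks had a median length of 31.3 kb, and 917 of the 1507 had larger coverage in Shh-/-;Gli3-/-.

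The X chromosome moved differently from the autosomes. Its covered-length ratio was 2.88, against 1.49 on chromosome 17 to 1.89 on chromosome 18 over the 19 autosomes. On the X, 45 of 583 genes were expanded, and on autosomes 266 of 16492. Xist, the RNA that silences one X in females, had 3 WT peaks covering 1.3 kb within 2 kb of the gene and 1 Shh-/-;Gli3-/- peak of 0.25 kb. Sry on the Y had 1 peak in each list. The sex of the embryos is not given in the sources used here, and its part in the X values was not tested.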

How the data were processed

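H3K27ac ChIP-seq was performed by the authors on single pairs of E10.5 forelimb buds (MicroChIP, 12 cycles of amplification), with 2 replicates and 1 input for each of WT and Shh-/-;Gli3-/-. Per the labels, reads were aligned with Bowtie2 2.2.5 to mm10, and the authors called peaks with CisGenome on the replicates of each genotype together. The deposited lists give a rank, a position in 50 bp steps read here as 1-based, an FDR (a q-value type of p-value), a score, the highest log2 fold over input and a Poisson −log10 p per peak. That −log10 value stops at 100 in the deposited lists and was not used. Both deposited lists end at a score of 3.0, which corresponds to an FDR of 0.350 in WT and 0.109 in Shh-/-;Gli3-/-, so 60.8% and 83.4% of their peaks had an FDR below 0.05. Read depth is not given in the lists, and values of different lists have different inputs and were not compared.

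Overlaps, covered length per gene (GENCODE M21, 50 kb on either side) and motif matches in GRCm38 were computed in Python 3.11.15 (pandas 2.3.3, scipy 1.17.1, numpy 2.4.6), after a test on simulated peaks. Genes were named by a fixed rule: all GLI feedback and posterior limb genes, called or extreme members of other lists, the 10 top windows and the 10 top peaks in each direction on autosomes. Some genes that meet this rule are not reported here. The members, gene lists and rules were chosen with earlier results of these data known. Alternatives held the lists to equal numbers, equal covered length or an FDR below 0.05, changed the overlap or window, or left out the sex chromosomes. The third genotype of the series was not used here.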

Additional observations from a re-analysis of the deposited data

How the results depend on the processing

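No paired analysis was possible because the deposited lists carry no value per replicate. Leaving out a replicate was not run for the same reason, and nothing here measures the spread between embryos. Calls rest on presence in a list, so a peak just under the calling threshold counts as missing.

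The share of WT peaks overlapped, 70.8%, became 66.7% with equal numbers of peaks and also with at least 50% of the WT peak covered, 83.3% at an FDR below 0.05, 94.0% for peaks of at least 500 bp, 37.5% when 50% of both peaks had to be covered and 45.1% when the lists had equal covered length. That last setting kept only 9365 Shh-/-;Gli3-/- peaks. The share of Shh-/-;Gli3-/- peaks overlapped, 43.3%, became 54.97% with equal numbers, 39.8% at an FDR below 0.05, 90.5% with equal covered length, 44.0% on autosomes, 53.7% for peaks of at least 500 bp, 32.3% when 50% of the peak had to be covered and 27.2% when this held for both peaks. WT peaks missing at promoters and distally, 13.2% and 47.6%, became 16.9% and 52.1% with equal numbers and 7.53% and 34.3% at an FDR below 0.05. The covered-length ratio ranged from 1.38 to 1.86.

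Expanded genes numbered 311, and 495 at an FDR below 0.05 and 34 with equal covered length. Reduced genes numbered 2, and 7 with equal numbers, 4 within 10 kb, 744 with equal covered length and 743 with 500 bp around each strongest position, a setting chosen after seeing the data in which joined peaks count once. Genes with WT peaks missing numbered 1507, and 310 at an FDR below 0.05, 5841 with equal covered length, 830 within 10 kb and 6573 when the 50% overlap had to hold both ways.

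Of 57 named genes the coverage difference changed sign for 2 with equal numbers of peaks (Hist1h1d and Hoxc4), 7 at an FDR below 0.05, 11 with equal covered length, 5 within 10 kb, 5 within 100 kb and 12 with 500 bp windows. No gene called expanded or reduced was among them. The difference at Gli1 was negative and at Hand2 and Sall3 positive in every one of these settings.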

Other observations

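Complete gains over a gene were commoner than complete losses. Of the 52 genes with at least 1 kb of Shh-/-;Gli3-/- coverage and none in WT over the gene and 2 kb to either side, 8 were on the X chromosome. They included Runx1t1, a transcriptional co-repressor, with 4.2 kb in 14 peaks, and Lmx1a, a LIM homeobox gene, with 2.35 kb in 6 peaks. The longest were at Cntn5, a neuronal adhesion gene 1244 kb long, with 4.45 kb in 18 peaks. These genes were named after their values were seen.

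Wide peaks were also commoner in Shh-/-;Gli3-/-, where 99 peaks reached 4 kb against 18 in WT. The widest WT peaks, 7500 bp at Meis2 and 6800 bp at Meis1, lay over limb field genes. The widest Shh-/-;Gli3-/- peaks lay at Hoxd11, at Hoxa7 (10800 bp, spanning 10 WT peaks), at Zfp608 and at Hoxa9 (9100 bp), and Lmx1b, which specifies dorsal limb fate, had one of 8100 bp that spanned 10 WT peaks.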
